A study of Mus musculus with 8 samples.

Results

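Complex IV, cytochrome c oxidase, was followed through the mRNAs of its subunits, its tissue isoforms and its assembly factors in mouse hearts with and without mtSSB, the mitochondrial single-stranded DNA binding protein encoded by Ssbp1. The set was chosen by name: the protein-coding genes called Cox followed by a digit, the mtDNA-encoded subunits mt-Co1, mt-Co2 and mt-Co3, and 12 further assembly genes (Sco1, Sco2, Surf1, Coa3, Coa5, Coa6, Coa7, Pet100, Pet117, Taco1, Cmc1 and Cmc2). This gave 42 of the 55383 genes in the table, namely 3 mitochondrial subunits, 17 nuclear structural subunits, the supercomplex factor Cox7a2l and 21 assembly factors. The rule itself uses names and no expression value.

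RNA came from whole hearts of C57BL/6N mice about 5 weeks old and was sequenced in TruSeq libraries that keep the strand. The knockouts are labelled Ssbp1-/-; in the study's knockouts exon 3 of Ssbp1 is flanked by loxP sites and removed by a Cre recombinase under the muscle creatine kinase promoter (Ckmm-cre), which is active in cardiomyocytes and skeletal muscle, so that endothelial cells, fibroblasts and other cells of the heart keep the gene. The controls are labelled Ssbp1+/+, whereas the study describes its controls as mice with the loxP-flanked gene and without Cre; the labels mention the cross with Cre mice for every sample and do not say which mouse carried Cre. The comparison rests on 2 control and 2 knockout hearts, each from its own mouse, because the labels of 2 further mice contradict each other on the genotype.

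Complex IV is the last enzyme of the respiratory chain: it takes electrons from cytochrome c, passes them to oxygen and pumps protons across the inner mitochondrial membrane. Its catalytic core is encoded in mtDNA and is surrounded by small subunits encoded in the nucleus, some of which exist as a form made in most tissues and a form made in heart and skeletal muscle. Dedicated assembly factors supply heme a and copper and guide the core subunits into the membrane.

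The libraries held 19716305 to 24067849 reads in the control hearts and 25558246 to 25682093 in the knockout hearts, and mitochondrial features took 62.7% to 66.7% of the reads in the control hearts and 56.2% to 58.0% in the knockout hearts. Ssbp1, on chromosome 6 at 40471352 to 40484700 (GRCm38), had normalized counts of 177 and 216 in the control hearts and 170 and 163 in the knockout hearts (log2 fold change -0.23 ± 0.16 SE, limma adjusted p = 0.890). This is a weak check of the genotype, because the count covers the whole gene and not the deleted exon. Of the 7 cardiomyocyte markers 0 passed the test, and their summed normalized count was 527492 to 563097 in the control hearts and 539284 to 557822 in the knockout hearts. Sums of red blood cell markers were 14398 to 18944 in 3 of the hearts and 41866 in knockout replicate 2, sums of fibroblast markers were 11740 to 12321 in the control hearts and 9106 to 10997 in the knockout hearts, and of the 6 skeletal muscle markers Myh1, Myh4, Tnnt3 and Mylpf were at 0 to 9.77. The other skeletal muscle markers are also made in the heart: Ckm was at 16123 to 18458 over the 4 hearts, and Acta1 was at 2801 and 4253 in the control hearts and 2670 and 1662 in the knockout hearts, the latter below both controls (log2 fold change -0.71, limma unadjusted p under 0.05, adjusted p = 0.798). The summed count of this list was 20428 to 21272 in the control hearts and 17791 to 20603 in the knockout hearts. Sums of the smooth muscle and pericyte list were 17445 to 19638 over the 4 hearts, those of the endothelial list 8541 to 9674, those of the macrophage list 921 to 1720 and those of the brown adipocyte list 133 to 166, the last with Ucp1 at 0. In the macrophage list, Cd68 was at 81.1 and 57.9 in the control hearts and 39.5 and 35.2 in the knockout hearts. Its log2 fold change was -0.86 (limma unadjusted p under 0.05, adjusted p = 0.754), while the groups overlapped for Adgre1, Csf1r and C1qa. None of these marker lists held a gene that passed the test. The part that these differences play in the values of the complex IV genes was not tested.

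The 3 mtDNA-encoded subunits were about 2- to 3-fold lower in the knockout hearts, whereas the nuclear-encoded part of the complex lay close to the control level. Of the 42 genes, 38 reached a normalized count of 10 in 2 or more of the 4 hearts and were tested. In limma, with p-values adjusted over all 14522 genes tested, 0 of the 38 passed the 0.05 threshold upward and 1, mt-Co3, passed it downward. Over all genes 0.0757% passed upward and 0.0413% downward. At an unadjusted p under 0.05 there were 5 of the 38, against 6.11% of all genes: the 3 mitochondrial subunits, Cox8a and Cox7a1. Among the 35 nuclear genes these are 2, or 5.71%, a share close to that of all genes. edgeR called the same single gene, mt-Co3, and DESeq2 called mt-Co1, mt-Co2 and mt-Co3 and none of the nuclear genes.

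**Figure D1:**
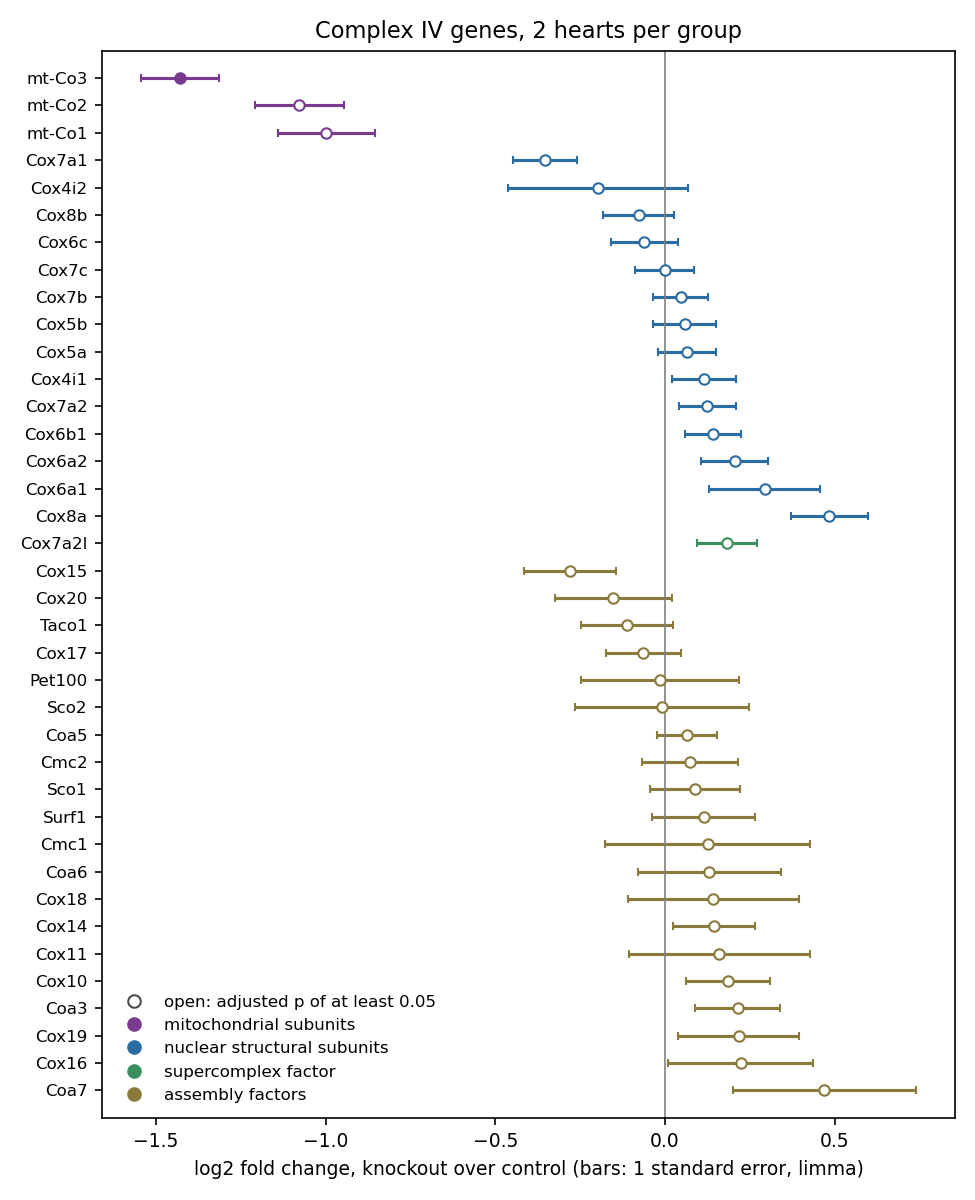
Log2 fold change of the 38 tested complex IV genes, knockout over control, with bars of 1 standard error from limma (2 hearts per group), coloured by role; open symbols have an adjusted p of at least 0.05. The 3 mtDNA-encoded subunits lie between -1.43 and -0.998, and the 35 nuclear genes between -0.35 and 0.48.

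mt-Co1, mt-Co2 and mt-Co3 encode the catalytic core: the first holds the heme a groups and one copper center, the second the copper center that receives electrons from cytochrome c, and the third is a core subunit without metal. All of them are on the same strand of mtDNA, at positions 5328 to 6872, 7013 to 7696 and 8607 to 9390 of the mitochondrial genome, and are transcribed in that order from the heavy-strand promoter. The normalized count of mt-Co1 was 1098293 and 1318239 in the control hearts and 639860 and 567453 in the knockout hearts. That of mt-Co2 was 268760 and 336592 in the control hearts and 146746 and 138289 in the knockout hearts. That of mt-Co3 was 368468 and 422469 in the control hearts and 153841 and 139454 in the knockout hearts. For each of the 3 genes both knockout hearts lay below both control hearts.

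mt-Co3 fell to 37.1% of the control level, from 395469 ± 38185 to 146647 ± 10173 (SD, n = 2 each), a log2 fold change of -1.43 ± 0.11 SE with a limma adjusted p of 0.0235. mt-Co2 stood at 47.1% of the control level, 302676 ± 47964 against 142517 ± 5979, and its log2 fold change of -1.08 ± 0.13 SE missed the threshold in limma (adjusted p = 0.0825). mt-Co1 stood at 49.96%, 1208266 ± 155525 against 603656 ± 51200, with a log2 fold change of -0.998 ± 0.14 SE and a limma adjusted p of 0.170. The reads behind these values numbered 178138 to 1123758 per gene and heart, so that counting error is small beside the spread between hearts. The limma call of mt-Co3 was lost without control replicate 2 (adjusted p = 0.142), without knockout replicate 1 (0.0644) and without knockout replicate 2 (0.141), with log2 fold changes of -1.33, -1.50 and -1.36, and held without control replicate 1 (0.0430, log2 fold change -1.53). In these fits 1 group is a single heart, which is taken to vary like the other group. Over all alternatives the limma, edgeR and DESeq2 adjusted p of mt-Co3 ran from 6.67e-39 to 0.365. As shares of the mitochondrial total, the log2 fold changes of mt-Co1, mt-Co2 and mt-Co3 were -0.52, -0.60 and -0.95, the last still past the threshold in limma (adjusted p = 0.00417). In whole-heart RNA, fewer cells that carry an mRNA and less of it per cell cannot be told apart.

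**Figure D2:**
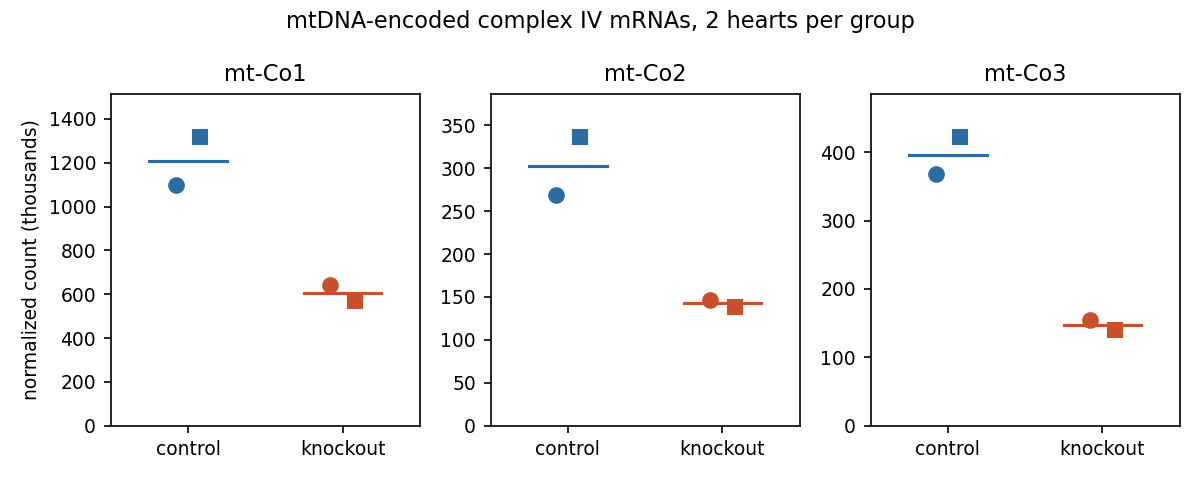
Normalized counts of mt-Co1, mt-Co2 and mt-Co3 in each of the 2 control and 2 knockout hearts, each panel starting at 0. In every panel the knockout hearts lie below both controls, with knockout means at 49.96%, 47.1% and 37.1% of the control means.

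Per kilobase of transcript, mt-Co1 was the highest of the core mRNAs in both groups, at a mean of 782049 in the control hearts and 390716 in the knockout hearts. mt-Co3 ranked second in the control hearts, at 504424 per kilobase against 442508 for mt-Co2, but in the knockout hearts it was at 187050, below mt-Co2 at 208359. The ratio of mt-Co3 to mt-Co1 within each heart, a value that needs no scaling between libraries, was 0.335 and 0.320 in the control hearts and 0.240 and 0.246 in the knockout hearts, a fold of 0.741 and a log2 difference of -0.43, with both knockouts below both controls. The ratio of mt-Co2 to mt-Co1 was 0.245 and 0.255 in the control hearts and 0.229 and 0.244 in the knockout hearts (log2 difference -0.08). Here, too, the knockouts lay below the controls, but knockout replicate 2 and control replicate 1 were nearly level. For each of these ratios the exact permutation test, two-sided, gave p = 0.333 (0.417 after adjustment over 5 ratios), the smallest p that 2 hearts against 2 allow.

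The core mRNAs of complex IV together took 11.8% and 11.7% of all mitochondrial RNA in the control hearts and 7.70% and 7.66% in the knockout hearts. Their share of the mitochondrial mRNAs alone was 65.0% and 64.4% in the control hearts and 71.4% in both knockouts. So within these hearts the share of complex IV lay lower in the knockout hearts among all mitochondrial RNA, with ribosomal RNA included, and higher in the knockout hearts among the mitochondrial mRNAs. Neither share was put to a test.

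The balance between the 2 genomes was followed as the summed count of mt-Co1, mt-Co2 and mt-Co3 over the summed count of the nuclear structural subunits. This ratio was 37.9 and 42.5 in the control hearts and 18.7 and 17.7 in the knockout hearts, with means of 40.2 ± 3.30 and 18.2 ± 0.659 (SD, n = 2 each), a fold of 0.453. The mitochondrial sum was 1735521 and 2077300 in the control hearts and 940446 and 845196 in the knockout hearts, while the nuclear sum was 45849 and 48847 against 50387 and 47662. The groups were apart in the first of these sums and overlapped in the second. No test was made of this ratio, which is a score over the set.

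**Figure D3:**
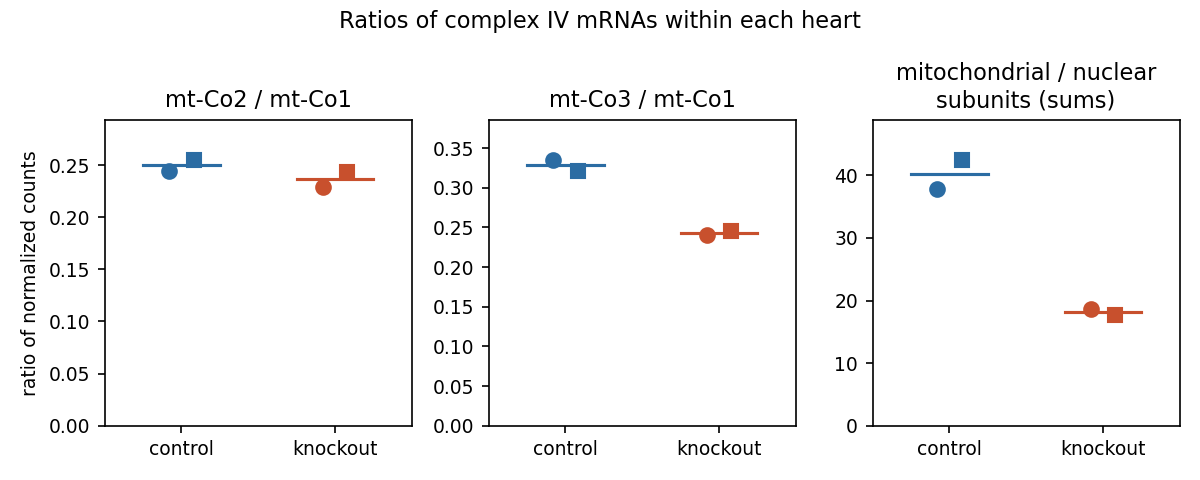
Ratios of complex IV mRNAs within each heart, with 2 control and 2 knockout hearts: mt-Co2 to mt-Co1, mt-Co3 to mt-Co1, and the summed mitochondrial over the summed nuclear subunits, each axis starting at 0. The knockouts lie at 0.240 and 0.246 against 0.335 and 0.320 for mt-Co3 to mt-Co1, and at 18.7 and 17.7 against 37.9 and 42.5 for the sums.

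The nuclear structural subunits surround the core and are needed for its assembly and regulation. Of 17 genes 14 were tested, and 0 passed in limma, edgeR or DESeq2. Their log2 fold changes ran from -0.35 to 0.48, with 9 above 0 and a median of 0.06, against a median of 0.0024 for all genes tested. Without control replicate 1 the median of the subunits was 0.0098. The knockouts lay above the controls without overlap in 6 (Cox5a, Cox6a1, Cox6a2, Cox6b1, Cox7a2 and Cox8a), or 42.9% against 18.1% of all genes. They lay below them in 1 (Cox7a1), or 7.14% against 17.5% of all genes. Of the 6 on the higher side, Cox5a had a narrow margin (2956 in control replicate 2, 2963 in knockout replicate 1). So did Cox6a1 (525 in control replicate 1, 531 in knockout replicate 1).

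Over the full set, 13 of the 38 tested genes (34.2%) lay without overlap above the controls, against 18.1% of all genes, and 5 (13.2%) lay below them, against 17.5% of all genes. All 13 on the higher side are nuclear genes, and the 5 on the lower side are the 3 core subunits, Cox7a1 and Cox15. These differences were small. Of the 35 nuclear genes 32 had an absolute log2 fold change under 0.3, and in 10 it was larger than both the difference between the controls and that between the knockouts. The share of all genes that meet this last rule was not computed, so the 10 have no background beside them. The median absolute log2 fold change of the 35 was 0.13, beside a median log2 difference of 0.15 between the 2 controls and 0.07 between the 2 knockouts.

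Among the subunits that every tissue makes, Cox4i1, the largest nuclear subunit, had the highest level per kilobase in both groups, with means of 11074 in the control hearts and 11961 in the knockout hearts. Its normalized count was 7689 and 8812 in the control hearts and 9126 and 8697 in the knockout hearts, groups that overlap (log2 fold change 0.11 ± 0.09 SE, limma adjusted p = 0.900). Cox6b1, the subunit that faces the intermembrane space near where cytochrome c docks, had counts of 4232 and 4618 against 4892 and 4862. Its log2 fold change was 0.14 ± 0.08 SE (limma adjusted p = 0.852). Cox5a, Cox5b, Cox6c, Cox7b and Cox7c had log2 fold changes between -0.06 and 0.06. Cox7c was the most nearly level of them, at 3175 and 3476 in the control hearts and 3377 and 3266 in the knockout hearts.

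The order of the levels per kilobase was much the same in both groups. In the controls Cox4i1 was followed by Cox7a1 at 10600, Cox6c at 9962, Cox6a2 at 8155, Cox6b1 at 7160, Cox7c at 6158 and Cox8b at 5565. Cox5b at 4871, Cox7b at 4794 and Cox5a at 4397 came next, and Cox7a2 at 2489, Cox8a at 1112, Cox6a1 at 803 and Cox4i2 at 80.9 closed the order. In the knockouts Cox7a1, at 8301, stood below Cox6c at 9524 and Cox6a2 at 9431, and the other positions were the same. The muscle forms thus ranked among the abundant subunits and their ubiquitous partners near the bottom, in both groups. Neighbours such as Cox5b and Cox7b did not differ beyond the spread between the hearts.

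**Figure D4:**
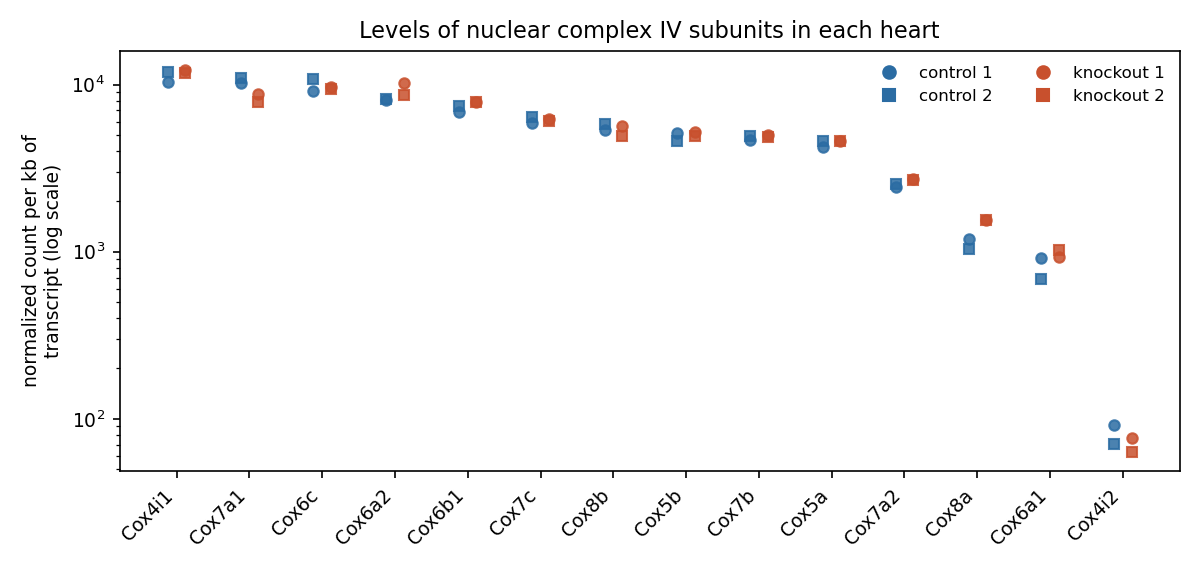
Levels of the 14 tested nuclear structural subunits in each heart, as normalized count per kilobase of transcript on a log axis, with 2 control and 2 knockout hearts. The levels span from about 80.9 for Cox4i2 to 11074 for Cox4i1 (control means), and among these 14 genes the ratio of knockout to control mean is farthest from 1 for Cox8a (1.40).

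The subunits that exist as a muscle and a ubiquitous form held the 2 largest absolute log2 fold changes among the tested structural subunits, those of Cox8a and Cox7a1, although neither passed the threshold and Cox4i2, at -0.38, exceeded Cox7a1, at -0.31, without control replicate 2. The muscle forms are Cox6a2 (chromosome 7, 128205435 to 128206387), Cox7a1 (chromosome 7, 30184144 to 30186078) and Cox8b (chromosome 7, 140898945 to 140900446), and the ubiquitous ones are Cox6a1 (chromosome 5, 115345642 to 115348981), Cox7a2 (chromosome 9, 79755361 to 79759878) and Cox8a (chromosome 19, 7215153 to 7217616), all on GRCm38. Cox6a2 and Cox6a1 are alternative forms of a subunit that regulates the enzyme, Cox7a1 and Cox7a2 of a subunit at the contact with other complexes and within the dimer, and Cox8b and Cox8a of the smallest subunit. The longest run of bases that the transcripts of a pair share was 12, 12 and 10 bases, and no other gene with a near-identical transcript was found for any of the 6.

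Cox7a1 had normalized counts of 4029 and 4303 in the control hearts and 3454 and 3071 in the knockout hearts. Both knockouts were below both controls, with a log2 fold change of -0.35 ± 0.09 SE (limma unadjusted p = 0.00899, adjusted p = 0.664); scaled by the mitochondrial total, which moves the median of all genes to 0.48, it was 0.12. Its partner Cox7a2 had 1613 and 1668 in the control hearts and 1806 and 1772 in the knockout hearts, the opposite order, with a log2 fold change of 0.13 ± 0.09 SE (limma adjusted p = 0.882). Within each heart the ratio of Cox7a1 to Cox7a2 was 2.50 and 2.58 in the control hearts and 1.91 and 1.73 in the knockout hearts. The means were 2.54 ± 0.0578 and 1.82 ± 0.127 (SD, n = 2 each), a fold of 0.717. Per length, Cox7a1 made up 80.7% and 81.2% of the pair in the control hearts and 76.2% and 74.4% in the knockout hearts.

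Cox8a had normalized counts of 655 and 569 in the control hearts and 853 and 855 in the knockout hearts. Both knockouts were above both controls, with a log2 fold change of 0.48 ± 0.11 SE (limma unadjusted p = 0.00481, adjusted p = 0.577). Its muscle partner Cox8b had 1929 and 2077 in the control hearts and 2036 and 1768 in the knockout hearts, groups that overlap (log2 fold change -0.08 ± 0.11 SE, limma adjusted p = 0.945). The ratio of Cox8b to Cox8a was 2.95 and 3.65 in the control hearts and 2.39 and 2.07 in the knockout hearts, with means of 3.30 ± 0.50 and 2.23 ± 0.224 (SD, n = 2 each) and a fold of 0.677. The muscle form was 81.8% and 84.8% of the pair per length in the control hearts and 78.5% and 76.0% in the knockout hearts.

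The third pair did not follow this order. Cox6a2 had normalized counts of 5487 and 5604 in the control hearts and 6917 and 5908 in the knockout hearts (log2 fold change 0.21 ± 0.10 SE, limma adjusted p = 0.815). Cox6a1 had 525 and 392 in the control hearts and 531 and 583 in the knockout hearts (log2 fold change 0.29 ± 0.16 SE, limma adjusted p = 0.837). With 1 library left out, the log2 fold change of Cox6a1 ran from 0.08 (without control replicate 2) to 0.50 (without control replicate 1), and that of Cox6a2 from 0.09 (without knockout replicate 1) to 0.32 (without knockout replicate 2). Both forms lay above the controls without overlap, and their ratio of 10.5 and 14.3 in the control hearts and 13.0 and 10.1 in the knockout hearts overlapped between the groups (log2 difference -0.09). Without control replicate 2 or knockout replicate 2 that log2 difference turned to 0.14 or 0.09. Cox6a2 was 89.8% and 92.3% of the pair per length in the control hearts and 91.6% and 89.5% in the knockout hearts.

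In the exact permutation test, two-sided, the ratios of Cox7a1 to Cox7a2 and of Cox8b to Cox8a each gave p = 0.333, the smallest that 2 hearts against 2 allow, and that of Cox6a2 to Cox6a1 gave p = 0.667. After Benjamini-Hochberg adjustment over the 5 ratios these permutation p-values were 0.417, 0.417 and 0.667. The muscle form thus held a smaller part of its pair in both knockouts for the Cox7a and Cox8 subunits, and the permutation test cannot reach 0.05 with 2 hearts per group.

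**Figure D5:**
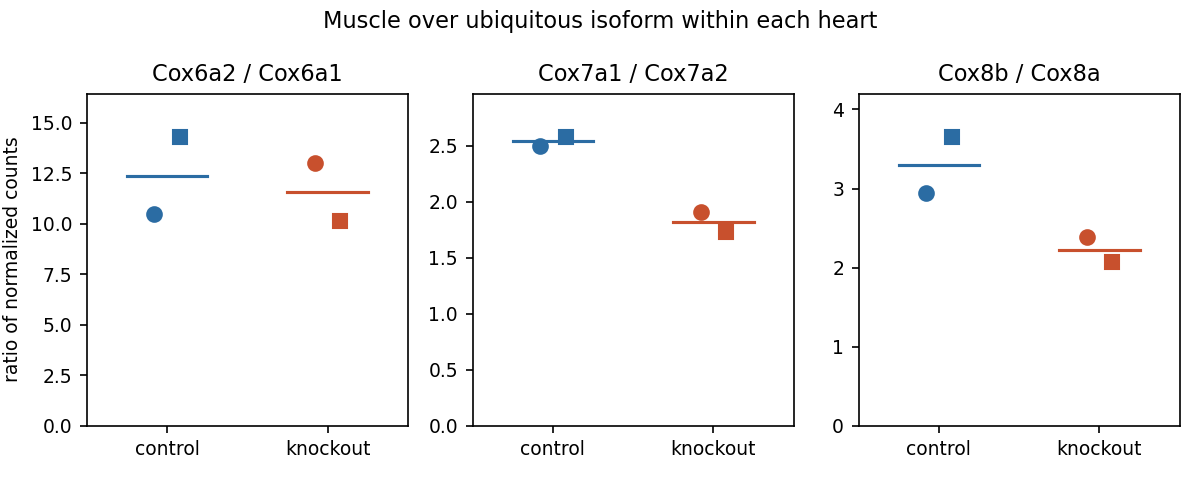
Ratio of the muscle to the ubiquitous isoform within each of the 2 control and 2 knockout hearts for 3 subunits, from normalized counts, each axis starting at 0. The knockouts lie below both controls for Cox7a1 to Cox7a2 (1.91 and 1.73 against 2.50 and 2.58) and Cox8b to Cox8a (2.39 and 2.07 against 2.95 and 3.65), and the groups overlap for Cox6a2 to Cox6a1.

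The promoters of the 2 pairs whose ratios did not overlap are shown to let the muscle and the ubiquitous form be compared. Each is the 150 bases before the RefSeq start on GRCm38.p6, read along the gene's strand, with capitals marking matches to the motifs searched. For Cox7a1 this is chr7:30184021-30184170 on the plus strand, for Cox7a2 chr9:79759854-79760003, for Cox8b chr7:140900447-140900596 and for Cox8a chr19:7217617-7217766, these on the minus strand.
Cox7a1: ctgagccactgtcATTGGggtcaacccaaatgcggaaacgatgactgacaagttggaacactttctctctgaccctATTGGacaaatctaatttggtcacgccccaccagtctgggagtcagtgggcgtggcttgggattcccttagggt
Cox7a2: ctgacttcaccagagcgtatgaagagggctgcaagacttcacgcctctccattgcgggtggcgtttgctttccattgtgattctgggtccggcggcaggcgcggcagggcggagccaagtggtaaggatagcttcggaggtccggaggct
Cox8b: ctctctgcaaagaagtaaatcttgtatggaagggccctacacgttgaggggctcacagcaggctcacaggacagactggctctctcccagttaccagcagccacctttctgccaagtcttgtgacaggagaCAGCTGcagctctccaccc
Cox8a: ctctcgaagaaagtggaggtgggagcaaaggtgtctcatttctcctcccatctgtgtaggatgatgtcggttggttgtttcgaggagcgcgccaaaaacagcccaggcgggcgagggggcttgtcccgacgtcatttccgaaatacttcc

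The motifs were the TATA box TATAAA, the CCAAT box CCAAT, the ETS site CCGGAAGT, the NRF1 site CGCANGCG and the E-box CAGCTG, each searched on both strands. Of 32851 promoters of this length in the RefSeq table, 7.57% held the TATA letters, 24.5% the CCAAT letters, 2.40% the ETS letters, 5.46% the NRF1 letters and 8.39% the E-box letters. In the muscle forms, Cox7a1 held the CCAAT letters on the opposite strand at -137 and -74, and Cox8b held the E-box letters at -19. Of the ubiquitous forms, Cox7a2 and Cox8a held none of the 5 motifs in these windows, while Cox6a1 held the CCAAT letters at -74 and the NRF1 letters at -116. Windows matched for 31 of the 39 nuclear genes, Cox6a2 not among them. The CCAAT letters were in 5 of 12 structural subunits and 3 of 18 assembly factors, and the ETS letters in 0 of 12 and 3 of 18. A match describes the letters only. Other forms of these sites, such as E-boxes with letters other than CAGCTG, were not searched, so a window without a match may still hold one.

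Other isoforms stood at low levels or at 0. Cox4i2, a form of the largest nuclear subunit known from lung and from the response to low oxygen, had normalized counts of 66.5 and 51.2 in the control hearts and 56.0 and 45.9 in the knockout hearts (log2 fold change -0.20 ± 0.27 SE, limma adjusted p = 0.944). The groups overlap, and its level per kilobase was 80.9 in the control hearts against 11074 for Cox4i1. Isoforms known from testis were not tested because they fell below the filter: Cox8c was at 0 in all 4 hearts, Cox7b2 at 0 to 1.53 and Cox6b2 at 1.53 to 6.74. Cox7a2l is related to the Cox7a subunits and was listed here as a supercomplex factor. Its mRNA count does not show whether the protein joins complexes III and IV in this mouse strain, which was not tested. The normalized count of Cox7a2l was 1647 and 1652 in the control hearts and 1935 and 1812 in the knockout hearts. Both knockouts were above both controls (log2 fold change 0.18 ± 0.09 SE, limma adjusted p = 0.815).

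Of the 21 assembly factors 20 were tested, and 0 passed in limma, edgeR or DESeq2, with 0 at an unadjusted p under 0.05. Their log2 fold changes ran from -0.28 to 0.47 with a median of 0.12, and 14 were above 0. The median was 0.06 without control replicate 2, 0.07 without knockout replicate 1 and 0.08 without knockout replicate 2. The median standard error was 0.16, against 0.09 for the structural subunits. The knockouts lay above the controls without overlap for 6 (Coa3, Coa5, Coa6, Cox10, Sco1 and Surf1), or 30% against 18.1% of all genes, and below them for 1 (Cox15), or 5% against 17.5% of all genes.

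Cox10 and Cox15 act one after the other in making heme a, the first turning heme b into heme o and the second heme o into heme a. Their mRNAs stood on opposite sides of the controls, though neither passed the test. The margin of Cox10 was narrow, with 548 in knockout replicate 2 against 541 in control replicate 1. Cox10 had normalized counts of 541 and 478 in the control hearts and 612 and 548 in the knockout hearts (log2 fold change 0.19 ± 0.12 SE, limma adjusted p = 0.882). Cox15 had 552 and 451 in the control hearts and 412 and 410 in the knockout hearts, with both knockouts below both controls. Its log2 fold change was -0.28 ± 0.14 SE (limma adjusted p = 0.815). Scaled by the mitochondrial total, which moves the median of all genes to 0.48, it was 0.20 and still below that median. In the deposited scaling, leaving out control replicate 1 gave -0.13 and leaving out control replicate 2 gave -0.43. Surf1, which acts early in assembly around the insertion of heme a into the first core subunit, had 154 and 167 against 178 and 170.

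Of the factors that carry copper to the core, Sco1 had normalized counts of 214 and 217 in the control hearts and 228 and 230 in the knockout hearts, and Coa6 had 76.2 and 64.7 against 77.4 and 76.5. For Sco2, Cox11, Cox16, Cox17 and Cox19 the groups overlapped, with log2 fold changes from -0.06 to 0.22. Cox16 remains uncertain, because the gene Gm20498 shares 1784 bases with its transcript at full identity and had counts of 31.3 to 88.9. Of the factors tied to the synthesis and insertion of the core subunits, Coa3 had 252 and 249 in the control hearts and 287 and 295 in the knockout hearts (log2 fold change 0.21 ± 0.13 SE, limma adjusted p = 0.848). Cox14, Cmc1, Taco1, Cox18 and Cox20 overlapped between the groups, with log2 fold changes from -0.15 to 0.14.

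Coa7, a further assembly factor, had normalized counts of 165 and 147 in the control hearts, 164 in knockout replicate 1 and 285 in knockout replicate 2. Its log2 fold change of 0.47 ± 0.27 SE (limma adjusted p = 0.845) therefore rests on 1 heart, and without knockout replicate 2 it was 0.07. This is the heart whose red blood cell markers were also highest, and the part of these cells in the Coa7 value was not tested. Coa5, Cmc2 and Pet100 had log2 fold changes of -0.02 to 0.07. Pet117 was at 0 in 3 hearts and at 9.43 in control replicate 2; its annotated transcript lies wholly within that of Kat14, whose count was 203 to 226, so that its value is uncertain.

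Outside the set, 19 genes that act on complex IV or beside it were all tested, and 0 passed in limma, edgeR or DESeq2, with 1 (5.26%, against 6.11% of all genes) at an unadjusted p under 0.05 and a median log2 fold change of 0.11, of which 15 were above 0. That gene was Timm21, which links protein import to early complex IV assembly: its counts were 270 and 276 in the control hearts and 363 and 381 in the knockout hearts (log2 fold change 0.45 ± 0.12 SE, limma adjusted p = 0.664). The knockouts lay above the controls without overlap in 5 of the 19 (26.3%, against 18.1% of all genes) and below them in 2 (10.5%, against 17.5%). Ndufa4, now counted as a complex IV subunit, had 3686 and 3853 against 3838 and 3772 (log2 fold change 0.01 ± 0.08 SE, limma adjusted p = 0.986). Cycs, cytochrome c itself, had 6635 and 6727 against 6458 and 6559 (log2 fold change -0.04 ± 0.07 SE, limma adjusted p = 0.964).

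The nuclear genes of the other respiratory complexes give the setting for the small positive median of the complex IV genes. The median log2 fold change was 0.04 over 38 genes with complex I names and 0.05 over 9 complex III genes. It was 0.06 over 17 tested ATP synthase genes and 0.06 for the nuclear structural subunits of complex IV. The 38 were taken by name and include Ndufa4 and Ndufa4l2, which are also among the 19 genes outside the set. In each of the other complexes 0 genes passed in limma, edgeR or DESeq2, and 0 had an unadjusted p under 0.05. Above the controls without overlap lay 18.4% of the complex I genes, 33.3% of the complex III genes and 35.3% of the ATP synthase genes. Below them lay 2.63%, 0% and 0%. Among the 35 nuclear complex IV genes these shares were 37.1% and 5.71%, and over all genes 18.1% and 17.5%. No difference between the complexes was tested.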

How the data were processed

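Total RNA of 6 hearts was sequenced. The authors masked nuclear copies of mtDNA in GRCm38.p6, aligned with STAR 2.7.3a, counted with Salmon 1.1.0, and deposited normalized counts per gene, a signal divided by DESeq2 1.26.0 size factors. Their deposited comparison (means, log2 fold changes, standard errors and p-values) was not used. All values (100%) were whole multiples of 1 read within a tolerance of 0.001. Genes reaching 10 in 2 or more of the 4 libraries were tested with limma 3.58.1 (R 4.3.3) with a mean-variance trend on log2(value + 1), two-sided, with Benjamini-Hochberg adjustment. Fold changes on this scale understate those of low genes. Alternatives covered pseudocount, filter, scaling, trend, robust moderation, replicate block, each library left out, and edgeR 4.0.16 and DESeq2 1.42.0 on recovered reads. The fits were also run on simulated data, where the only condition set was on the median fold change of strongly changed genes. No condition was set on false calls or on the recovery of small changes.

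The genes, lists and motifs were chosen with earlier results of these data known. Full values are given for the core subunits, the isoforms and Cox7a2l, and for further members called, with an unadjusted p under 0.05, or without overlap at an absolute log2 fold change of at least 0.3; Cox7c, Cox10, Cox15, Coa3, Coa6, Coa7, Sco1, Surf1 and Timm21 were named after their values were seen. Positions and lengths (1 principal transcript per gene) are from GENCODE vM21 and promoters from RefSeq. Near-identical genes (at least 200 bases at 95% identity) were sought with BLAST 2.17.0: 13 members had one, and 9 had one above 0. matplotlib 3.10.9 under Python 3.11.15 drew the figures.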

Additional observations from a re-analysis of the deposited data

Results flagged for a closer look

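In the 2 mice whose title and genotype labels contradict each other, and which enter no comparison, 6 of the 38 tested genes exceeded both controls by more than the difference between the controls. Cox6a2 had normalized counts of 7265 and 6881 in these mice, against 5487 and 5604 in the controls, and Cox7a2l had 1680 and 1711 against 1647 and 1652. Coa3 had 284 and 309 against 252 and 249, and Surf1 had 197 and 206 against 154 and 167. Cox19 had 204 and 209 against 162 and 148, and Cox17 had 553 and 633 against 538 and 540. Only values above the controls were searched for, and only among the complex IV genes and their ratios. How many of all genes meet this rule was not computed, so the 6 have no background beside them. No group was inferred from these values.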

How the results depend on the processing

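Of 362 alternative values, 336 kept their direction and their side of the threshold or stayed near the reported value. Part of them could not change. Fits without a trend, with robust moderation or with a replicate block return the same log2 fold changes and medians. The ratios keep their value with the block, and their tests cannot pass the threshold. The count of 336 therefore overstates how far the results were put to the test. The number of complex IV genes called lower, 1 as reported, was 0 without a filter, 0 without a mean-variance trend, 3 with robust limma and 3 with DESeq2, and 0 to 1 with 1 library left out. mt-Co3 then had limma adjusted p-values of 0.0618 without a filter and 0.365 without a trend, and robust limma gave 0.0397 for mt-Co1 and 0.0341 for mt-Co2, whose adjusted p ran from 2.51e-15 to 0.858 and from 3.22e-17 to 0.581 over the alternatives. Scaling by the mitochondrial total shifts the median of all genes to 0.48. It gave medians of 0.54 for the structural subunits and 0.59 for the assembly factors, and turned Ssbp1 to 0.24, Cox7a1 to 0.12, Cox8b to 0.40, Cox4i2 to 0.27 and Cox15 to 0.20; relative to the shift, Ssbp1, Cox7a1, Cox8b, Cox4i2 and Cox15 were still below it. Cox8b ran from -0.18 to 0.025 (0.025 without knockout replicate 2), and the log2 ratio of Cox6a2 to Cox6a1 ran from -0.32 to 0.14 with 1 library left out. The cause of changes that are not set by the scaling was not tested.

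The labels share replicate numbers without saying that these pair the hearts (correlation of deviations 0.31). With 2 hearts per group this correlation is the same for both numbers by construction, so it cannot decide whether the hearts are paired. With the replicate number as a block, limma called 30 genes in place of 17, mt-Co3 was still the single complex IV gene (adjusted p = 0.0263), and no call of a complex IV gene changed. Over all genes DESeq2 called 62, scaling by the mitochondrial total 53, limma without a trend 6, and limma with 1 library left out 6 to 33. Pseudogenes named after a member with -ps were not in the table, so adding them was not run. With 2 hearts per group the permutation tests of the ratios could not pass the threshold.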

Other observations

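The mouse titled as wild type but with the genotype Ssbp1-/- and the mouse titled as knockout but with the genotype Ssbp1+/+ were each sequenced in 2 technical runs that the authors combined. In this order, their normalized counts were 606857 and 1318691 for mt-Co1, 144833 and 343494 for mt-Co2, and 146349 and 471234 for mt-Co3. The ratio of mt-Co3 to mt-Co1 was 0.241 and 0.357, and that of the summed mitochondrial to the summed nuclear subunits was 18.6 and 42.3. The ratio of Cox7a1 to Cox7a2 was 2.06 and 2.56, that of Cox8b to Cox8a was 2.75 and 3.17, and that of Cox6a2 to Cox6a1 was 15.3 and 18.1. The core mRNAs made up 70.8% and 63.7% of the mitochondrial mRNAs in these mice. Cox8a had normalized counts of 657 and 685 in them, against 655 and 569 in the control hearts and 853 and 855 in the knockout hearts. Cox7a1 had 3511 and 4098, against 4029 and 4303 in the control hearts and 3454 and 3071 in the knockout hearts.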
